A study of Mus musculus with 12 samples.

Results

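The genes that make, move, store and export cholesterol were examined in activated mouse CD8 T cells, in a comparison of the sexes and in a comparison of cells with less and with normal Kdm5d RNA. The set comprised 32 genes of the 55487 identifiers in each table, chosen by name for their place in sterol metabolism, with earlier results of these data known. It held 19 synthesis genes, 4 regulators of the SREBP transcription factors, 4 genes of sterol transport and storage, and 5 genes of sterol efflux and of the liver X receptors (LXR). Each of the 32 matched 1 identifier in GENCODE mouse release M21, and each passed the low-count filter in both comparisons.

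Cholesterol is built from acetyl-CoA in the mevalonate pathway, which also supplies the isoprenoids used for prenylation, ubiquinone and dolichol, and continues through squalene and lanosterol to cholesterol. When sterols in the endoplasmic reticulum are low, SCAP escorts SREBP proteins to the Golgi for cleavage, and the released factor, often together with NF-Y, activates the synthesis and uptake genes. When sterols are plentiful, INSIG proteins hold SCAP back and oxysterols activate LXR, which induces efflux transporters. Proliferating T cells are known to raise sterol synthesis on activation.

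RNA was sequenced from 12 samples of OT-1 CD8 T cells, in 4 groups of 3 samples. OT-1 mice carry a T cell receptor transgene, so that their CD8 T cells recognise the same ovalbumin peptide. The Female and Male groups were spleen cells of each sex, activated for 3 days with beads against CD3 and CD28 and with recombinant mouse IL2. The WT and KD groups were a separate batch of male cells cultured for 3 days after electroporation. For KD, Cas9 was introduced together with a guide RNA targeting Kdm5d, a histone demethylase gene on the Y chromosome, and for WT the guide RNA went in without Cas9. All 4 groups were OT-1 cells grown in T cell medium with IL2, and mouse ages were not given in the sources used here. No sample received Cas9 without the guide, so an effect of Cas9 itself and an effect of lower Kdm5d cannot be told apart. The labels do not say whether the 3 samples of a group came from separate mice or cultures, so the p-values measure only the spread between these samples, which may be technical. The study's title names KDM5D and metabolic sex differences in CD8 T cells, and the comparisons here ask how the sterol genes differed by sex and after the knockdown.

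Total counts per sample ranged from 85633225 to 96594439 for Female, from 87925263 to 93502333 for Male, from 97655759 to 110803318 for WT, and from 78748647 to 107785015 for KD. Levels are given as counts per 1000000 of a library whose size was scaled by TMM (CPM), and levels of different genes are set against each other only as CPM per kilobase of exon. The targeted gene was first checked. Kdm5d was at 48.4, 51.9 and 52.4 CPM in WT and 21.4, 21.8 and 22.9 CPM in KD, which left 43.3% of the WT level (edgeR log2 fold change -1.21, SE 0.045, adjusted p = 3.13e-08). It was at 49.5 to 52.2 CPM in Male, and Female samples held 0, 2 and 0 counts. Summed CD8 T cell markers (Cd3e, Cd3d, Cd8a, Cd8b1, Trac) ranged from 1389 to 1503 CPM over the Male and Female samples and from 1620 to 1768 over the WT and KD samples, so the labelled cell type was present in each group.

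The promoters of a few of these genes are shown first, with the letters of boxes that SREBP, NF-Y and LXR are known to bind where they occur. RefSeq promoter windows (GRCm38.p6, 250 bases before to 50 bases after a start site) were found for 26 of the 32 genes. Both strands were searched for the sterol response element TCACNCCAC, for the NF-Y box CCAAT, which on the other strand reads ATTGG, and for the LXR direct-repeat element with 4 bases between its repeats. Each repeat had to read AGGTCA or AGTTCA exactly, and other spellings of these motifs were not searched. In the 250 bases before the start printed here, 5′ to 3′ on the gene's strand, capitals mark the NF-Y box in either reading or the sterol response element. Hmgcs1 (chr13:119690101-119690350, plus strand) and Msmo1 (chr8:64733579-64733828, minus strand) are shown as synthesis genes with several boxes, Mvk (chr5:114444019-114444268, plus strand) for its 5 boxes, and Idi1 (chr13:8885356-8885605, plus strand) because it differed strongly by sex and little after the knockdown. Insig1 (chr5:28071162-28071411, plus strand) and Insig2 (chr1:121332590-121332839, minus strand) are shown as relatives that moved differently. Abca1 (chr4:53159896-53160145, minus strand) is shown as an efflux gene with no exact match to the searched spellings. An LXR element in another spelling would be neither found nor marked, so its window is not shown to lack one.
Hmgcs1: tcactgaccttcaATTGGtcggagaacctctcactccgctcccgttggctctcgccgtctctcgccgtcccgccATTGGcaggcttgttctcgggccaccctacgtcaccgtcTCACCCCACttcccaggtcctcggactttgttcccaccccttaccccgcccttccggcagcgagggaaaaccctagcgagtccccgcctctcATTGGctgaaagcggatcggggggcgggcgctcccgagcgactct
Msmo1: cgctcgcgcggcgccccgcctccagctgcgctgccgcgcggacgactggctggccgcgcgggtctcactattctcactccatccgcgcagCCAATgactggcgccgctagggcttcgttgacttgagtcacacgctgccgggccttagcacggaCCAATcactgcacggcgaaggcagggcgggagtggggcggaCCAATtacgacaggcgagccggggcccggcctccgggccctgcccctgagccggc
Mvk: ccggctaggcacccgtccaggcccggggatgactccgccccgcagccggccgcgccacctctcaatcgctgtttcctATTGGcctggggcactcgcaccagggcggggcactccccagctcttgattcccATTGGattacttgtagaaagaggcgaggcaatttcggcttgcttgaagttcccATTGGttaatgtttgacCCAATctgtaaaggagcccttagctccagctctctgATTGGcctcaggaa
Idi1: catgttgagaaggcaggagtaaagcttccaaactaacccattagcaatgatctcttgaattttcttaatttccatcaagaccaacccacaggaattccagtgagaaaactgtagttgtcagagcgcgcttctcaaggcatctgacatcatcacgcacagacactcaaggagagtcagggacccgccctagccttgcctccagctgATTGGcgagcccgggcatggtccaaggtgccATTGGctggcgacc
Insig1: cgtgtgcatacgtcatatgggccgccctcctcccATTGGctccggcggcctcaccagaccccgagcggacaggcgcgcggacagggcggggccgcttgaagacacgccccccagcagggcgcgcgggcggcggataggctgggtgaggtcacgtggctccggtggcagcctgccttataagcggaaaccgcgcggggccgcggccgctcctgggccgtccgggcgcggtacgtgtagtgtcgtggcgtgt
Insig2: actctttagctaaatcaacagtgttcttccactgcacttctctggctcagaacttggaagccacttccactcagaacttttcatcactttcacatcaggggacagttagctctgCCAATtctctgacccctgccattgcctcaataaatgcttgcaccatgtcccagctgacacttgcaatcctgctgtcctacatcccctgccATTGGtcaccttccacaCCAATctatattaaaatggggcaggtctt
Abca1: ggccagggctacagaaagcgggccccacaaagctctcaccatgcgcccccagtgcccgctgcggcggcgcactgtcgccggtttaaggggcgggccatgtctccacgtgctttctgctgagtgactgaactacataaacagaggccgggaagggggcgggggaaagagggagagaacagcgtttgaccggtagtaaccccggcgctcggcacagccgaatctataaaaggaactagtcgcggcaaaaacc

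A CCAAT box on either strand was present in 15 of the 16 synthesis genes with a window (93.8%), the exception being Acat2, and in 6 of the 10 other genes. Over all 27025 genes with windows the share was 41.1%. The sterol response element as spelled here was found in 1 of the 26 genes, Hmgcs1, where it read TCACCCCAC and began 137 bases before the start. The share over all genes was 1.44%. The LXR element as spelled here was found in 0 of the 26 genes and in 0.03% of all genes, and variants of it would have been missed. These matches are descriptions of the letters in these windows. Insig2 had 3 windows in RefSeq, and the one printed, at the most upstream start, was the one that held boxes.

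The synthesis genes were higher in Male than in Female nearly throughout the pathway. Of the 19 genes, 18 were called higher in Male, 0 lower, and 1, Ggps1, was not past the threshold (edgeR adjusted p under 0.05). Over all 20208 genes tested, 23.5% were called higher in Male and 26.3% lower. The median log2 fold change of the 19 genes was 1.43, beside 0.011 over all genes tested, and 14 of the 19 were above 1. Their CPM summed to 685.2, 679.8 and 672.9 in the Female samples and to 1851, 1829 and 1839 in the Male samples. In bulk RNA a smaller share of cells expressing a gene and less of its RNA per cell cannot be told apart.

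The first steps turn acetyl-CoA into isoprenoid units. Acat2, the cytosolic thiolase that starts the route, was at 36.1, 35.4 and 36.1 CPM in Female and 87.4, 90.5 and 85.9 in Male (log2 fold change 1.29, SE 0.029, adjusted p = 2.88e-10). Hmgcs1 (chromosome 13, 119690379 to 119708260, GRCm38), the cytosolic HMG-CoA synthase, was at 106, 108 and 102 CPM in Female and 331, 328 and 323 in Male. The 3 Male samples lay close together and far above the Female samples, a 3.11-fold difference (log2 1.64, SE 0.026, adjusted p = 2.35e-11). The kinases Mvk and Pmvk and the decarboxylase Mvd, which carry mevalonate to isopentenyl diphosphate, had smaller log2 fold changes of 1.07, 0.74 and 1.03. Idi1 (chromosome 13, 8885501 to 8892451), the isomerase of isopentenyl diphosphate, was at 25.7, 26.3 and 28.1 CPM in Female and 107, 104 and 106 in Male, 3.96-fold higher (adjusted p = 6.97e-11). Fdps (chromosome 3, 89093588 to 89101959), which makes farnesyl diphosphate, was at 38.7, 41.1 and 36.9 CPM in Female and 173, 169 and 178 in Male. Its log2 fold change of 2.16 (SE 0.040, adjusted p = 7.87e-11) was the largest among the 32 genes, and its groups were far from overlapping.

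Ggps1 uses farnesyl diphosphate to make geranylgeranyl diphosphate, away from the sterol branch. It was at 52.6, 50.9 and 49.5 CPM in Female and 51.7, 47.4 and 47.3 in Male. The groups overlapped, and the log2 fold change of -0.064 (95% interval -0.15 to 0.018) was not past the threshold (edgeR adjusted p = 0.237). Without Male replicate 1 it was -0.11 with an adjusted p of 0.033.

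Past the branch point, farnesyl diphosphate is joined to squalene by Fdft1, oxidised by Sqle and closed to lanosterol by Lss. Fdft1 was at 19.4, 22.4 and 22.4 CPM in Female and 59.4, 55.3 and 58.1 in Male, a log2 fold change of 1.43 (SE 0.057, adjusted p = 1.42e-08). Sqle was at 59.6, 56.1 and 56.6 CPM in Female and 134, 131 and 133 in Male, a log2 fold change of 1.21. Lss was at 39.0, 36.7 and 36.6 CPM in Female and 139.8, 141 and 147 in Male, a log2 fold change of 1.93 (SE 0.033, adjusted p = 4.81e-11). All 3 genes of this stretch were higher in each Male sample than in any Female sample. Over all genes tested, 58.3% had groups that did not overlap in either direction.

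The 8 genes measured from lanosterol onward were also each called higher in Male, with a median log2 fold change of 1.51 and a wide spread among them. Cyp51, the lanosterol demethylase, was at 96.4, 94.3 and 96.7 CPM in Female and 307, 299 and 301 in Male (log2 fold change 1.66, SE 0.023, adjusted p = 1.11e-11). Msmo1, which oxidises methyl groups on the sterol ring, was at 18.4, 19.8 and 19.6 CPM in Female and 84.4, 83.9 and 82.4 in Male (log2 fold change 2.12, SE 0.036, adjusted p = 4.56e-11). Its partners in that demethylation, the dehydrogenase Nsdhl and the ketoreductase Hsd17b7, had log2 fold changes of 1.48 and 1.64. Dhcr7, the last reductase of the route, was at 23.5, 26.4 and 25.0 CPM in Female and 72.1, 74.2 and 70.7 in Male, a log2 fold change of 1.53. The smallest changes among the 8 genes were those of Tm7sf2, a sterol reductase, with 0.41 (adjusted p = 0.00051), the isomerase Ebp with 0.48 (adjusted p = 5.57e-06), and the desaturase Sc5d with 0.75 (adjusted p = 1.45e-07). Nsdhl and Ebp lie on the X chromosome, and both were higher in Male.

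**Figure D1:**
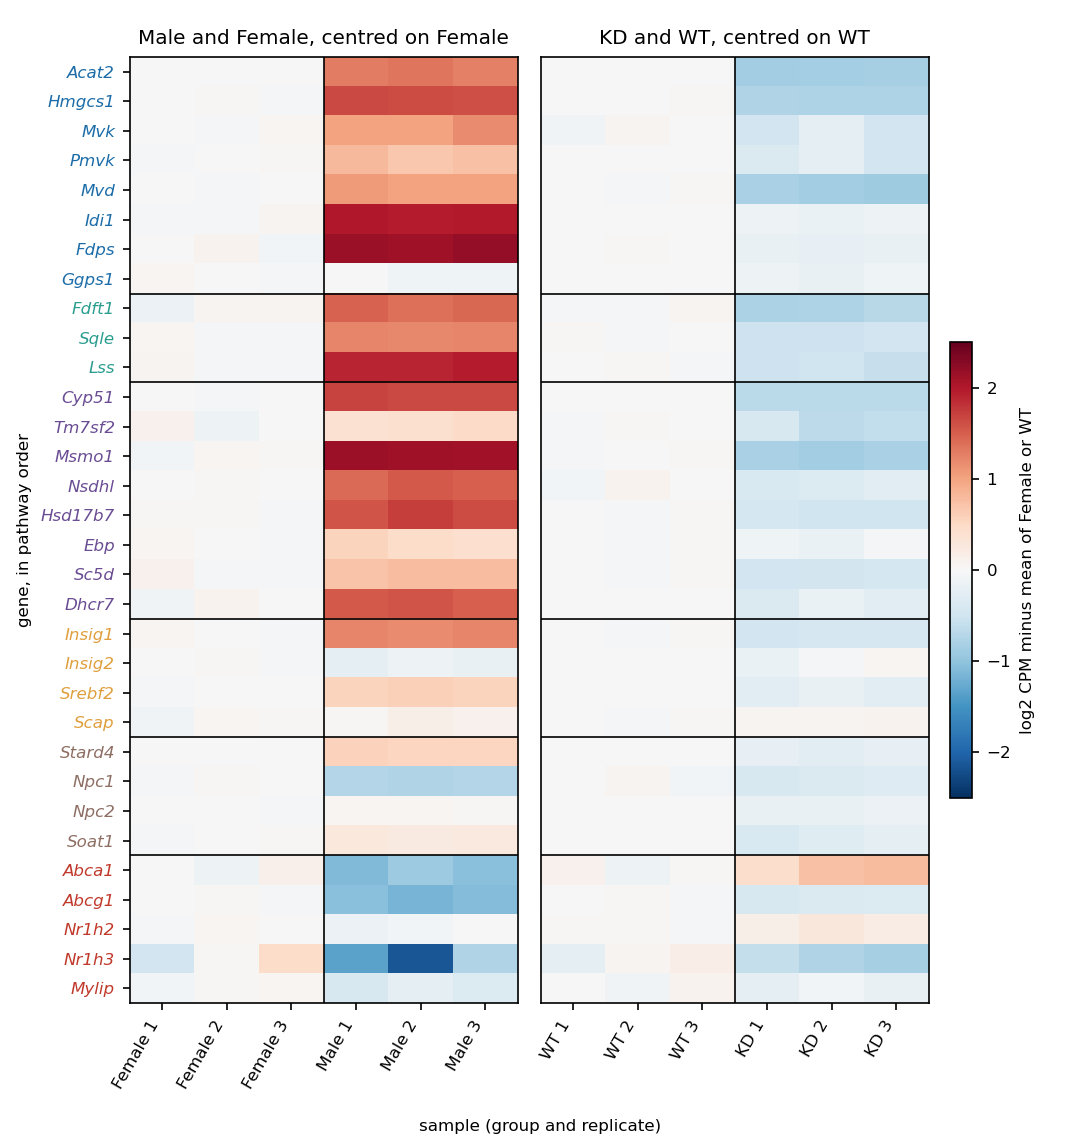
Heat map of the 32 genes in each of the 12 samples, in pathway order and coloured as log2 CPM minus the mean of the Female samples (left) or of the WT samples (right). The synthesis block at the top is red in the 3 Male samples except for Ggps1 and blue in the 3 KD samples, and the efflux block at the bottom is mostly blue in Male and mixed in KD.

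After the knockdown the synthesis genes moved the other way, and by less. Of the 19 genes, 18 were called lower in KD than in WT, 0 higher, and 1, Ebp, was not past the threshold. Over all 20413 genes tested, 18.4% were called lower in KD and 16.8% higher. The median log2 fold change of the 19 genes was -0.48, beside 0.012 over all genes tested. Their CPM summed to 1914, 1921 and 1931 in the WT samples and to 1335, 1332 and 1337 in the KD samples. Each of the 19 genes was lower in each KD sample than in any WT sample, where 46.8% of all genes tested had groups that did not overlap in either direction.

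The size of the fall differed along the mevalonate steps. Acat2 went from 101, 100.2 and 99.0 CPM in WT to 54.9, 55.6 and 56.6 in KD, 55.7% of WT (log2 fold change -0.85, SE 0.028, adjusted p = 1.16e-08). Hmgcs1 went from 381, 383 and 394 CPM to 228, 225 and 225, 58.6% of WT (log2 fold change -0.77, SE 0.020, adjusted p = 3.60e-09). Mvd went from 43.6, 43.2 and 44.9 CPM to 25.0, 23.9 and 23.6 (log2 fold change -0.86, SE 0.039, adjusted p = 1.20e-07), the largest fall among the 32 genes. Mvk and Pmvk fell less, with log2 fold changes of -0.39 (SE 0.072) and -0.35 (SE 0.069). Idi1 and Fdps, the pair with the highest sex differences of these steps, fell least among those called in both comparisons. Idi1 went from 138, 138 and 136 CPM in WT to 126, 123 and 126 in KD, which kept 90.8% of WT (log2 fold change -0.14, SE 0.024, adjusted p = 0.0011). Fdps went from 144, 148 and 145 CPM to 127, 126 and 128, which kept 87.2% (log2 fold change -0.20, SE 0.023, adjusted p = 8.76e-05). Ggps1 was called lower here, with 49.4 to 50.3 CPM in WT and 45.6, 44.0 and 46.2 in KD, a log2 fold change of -0.14 (adjusted p = 0.0086).

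Each of the 3 genes from farnesyl diphosphate to lanosterol was called lower in KD. Fdft1 went from 59.1, 59.5 and 64.2 CPM to 35.4, 35.8 and 37.6 (log2 fold change -0.75, SE 0.043, adjusted p = 6.01e-07). Sqle and Lss fell by 0.50 and 0.53 on the log2 scale, to 70.5% and 69.3% of WT. Of the 8 later genes, 7 were called lower, with Msmo1 the furthest, from 77.5, 78.9 and 80.5 CPM to 45.0, 43.3 and 44.9 (log2 fold change -0.83, SE 0.032, adjusted p = 3.74e-08). Cyp51 followed, at 282 CPM in each WT sample and 177, 178 and 176 in KD (log2 fold change -0.67, SE 0.019, adjusted p = 4.21e-09). Tm7sf2, Hsd17b7 and Sc5d fell by 0.56, 0.48 and 0.46, and Nsdhl and Dhcr7 by 0.33 and 0.26. Ebp was at 59.6, 58.8 and 60.4 CPM in WT and 55.4, 52.9 and 58.2 in KD. Its log2 fold change of -0.10 (95% interval -0.18 to -0.026) was not past the threshold (edgeR adjusted p = 0.067), and it was past it without KD replicate 3 (-0.14, adjusted p = 0.022) and with DESeq2 (adjusted p = 0.039).

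**Figure D2:**
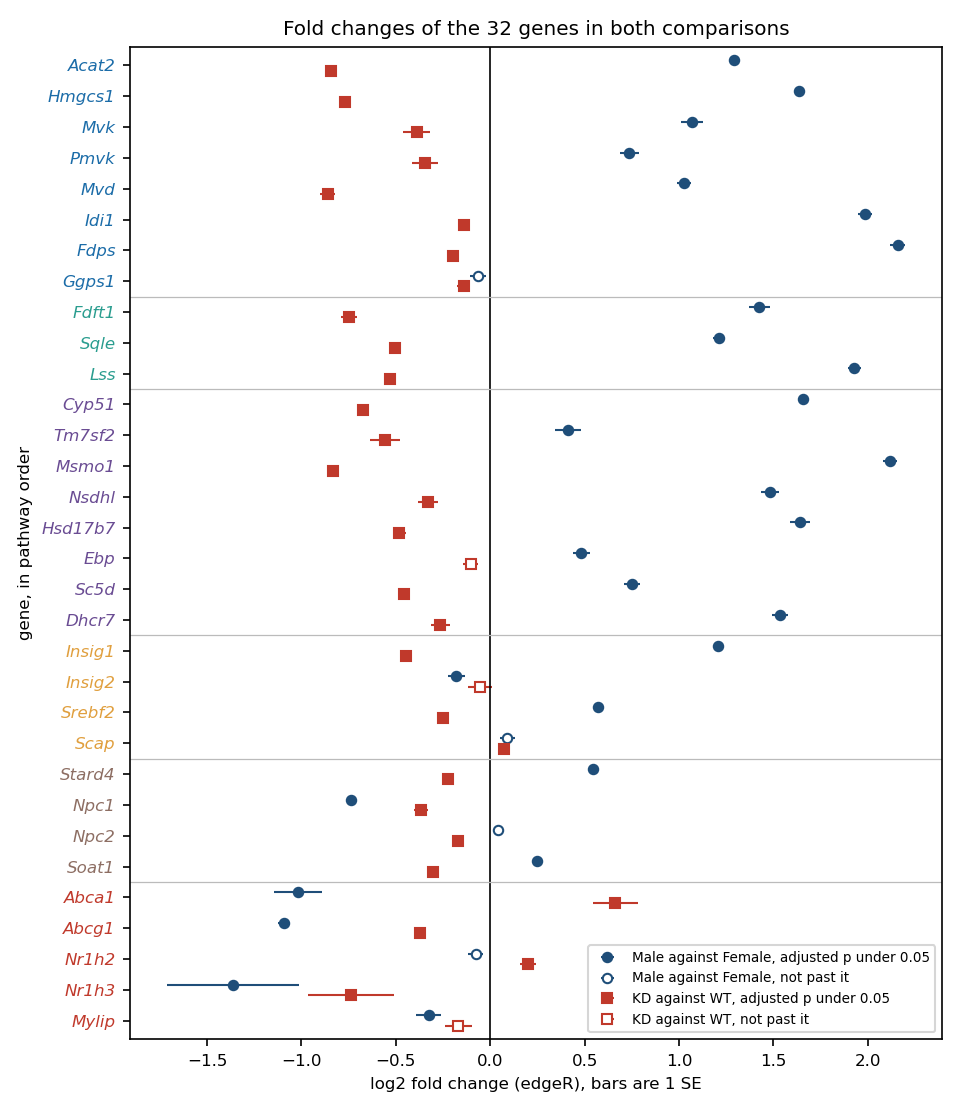
Log2 fold change of each of the 32 genes, Male over Female (circles) and KD over WT (squares), with bars of 1 SE from edgeR and open symbols where the adjusted p was not under 0.05. Among the synthesis genes the circles reach 2.16 for Fdps, and the squares lie between -0.86 for Mvd and -0.10 for Ebp.

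Some of these counts may include reads of other genes. The share of a gene's 31-base subsequences that also occur in transcripts of another gene was 43.8% for Acat2, 31.9% for Fdft1, 27.9% for Fdps, 27.1% for Idi1, 14.9% for Ggps1, 13.3% for Tm7sf2 and 13.1% for Hmgcs1. Fdft1 overlaps exons of Ctsb on the opposite strand, Fdps overlaps Gm43738 and Tm7sf2 overlaps Vps51 on the same strand, and the use of strand in counting was not given in the sources used here. Of the 12 synthesis genes with a share of 10% or less, 12 were called higher in Male and 11 were called lower in KD.

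The 4 SREBP regulators did not move together. Srebf2 (chromosome 15, 82147181 to 82205379), the gene of the SREBP2 factor itself, was at 341, 347 and 350.1 CPM in Female and 512, 521 and 512 in Male (log2 fold change 0.57, SE 0.018, adjusted p = 2.95e-09). It was at 609, 612 and 609 CPM in WT and 501, 536 and 502 in KD (log2 fold change -0.25, SE 0.025, adjusted p = 2.92e-05). So the factor's own RNA moved in the same directions as the synthesis genes, by less than their median in each comparison. Scap, the escort and sterol sensor, was at 104, 114 and 112 CPM in Female and 113, 121 and 118 in Male. The groups overlapped and the log2 fold change of 0.091 was not past the threshold (edgeR adjusted p = 0.078), but it was past it without Female replicate 2 (0.12, adjusted p = 0.043), with DESeq2 (adjusted p = 0.040), with counts divided by 4 (0.048) and with genes limited to a mean log2 CPM of at least 1 (0.020).

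In the knockdown Scap was at 161, 159 and 164 CPM in WT and 169, 169 and 171 in KD, and its rise of 0.073 on the log2 scale (SE 0.022) was called with an edgeR adjusted p of 0.026. The call was lost without WT replicate 1 (adjusted p = 0.089), WT replicate 2 (0.104), KD replicate 1 (0.057) or KD replicate 3 (0.076), and in 1 fit of all 12 samples (0.112).

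The INSIG genes, which hold SCAP in the endoplasmic reticulum, differed from each other. Insig1 (chromosome 5, 28071363 to 28078662), itself a known SREBP target, was at 44.4, 42.8 and 41.7 CPM in Female and a mean of 99.2 ± 1.25 (SD, n = 3) in Male (log2 fold change 1.21, SE 0.029, adjusted p = 4.51e-10). It was at 112, 107 and 113 CPM in WT and 79.1, 82.2 and 82.5 in KD (log2 fold change -0.44, SE 0.031, adjusted p = 2.41e-06). Both changes were close to the medians of the synthesis genes, and the groups did not overlap. Insig2 (chromosome 1, 121304353 to 121332589) was at 21.5, 21.9 and 21.2 CPM in Female and 18.3, 19.7 and 19.0 in Male, a fall of 0.18 on the log2 scale (SE 0.045, adjusted p = 0.0077). It was at 15.3, 15.2 and 15.4 CPM in WT and 13.6, 14.8 and 15.9 in KD, where the groups overlapped (log2 fold change -0.055, 95% interval -0.18 to 0.067, edgeR adjusted p = 0.557). Within each sample the log2 ratio of Insig1 to Insig2 averaged 0.99 in Female and 2.38 in Male, a difference of 1.39, and 2.85 in WT and 2.46 in KD, a difference of -0.39. The ratios did not overlap between groups in either comparison. In an exact two-sided permutation test each gave p = 0.1, the smallest that 3 samples against 3 allow, and 0.125 after adjustment over the 10 ratios compared.

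Of the transport and storage genes, 2 were called higher and 1 lower in Male (23.5% and 26.3% over all genes tested), and all 4 were called lower in KD (18.4% over all genes tested). Stard4, a soluble sterol carrier, was at 119, 118 and 119.6 CPM in Female and 177, 172 and 173 in Male (log2 fold change 0.55, adjusted p = 1.63e-08), and it fell by 0.22 in KD (adjusted p = 0.00010). Soat1, which esterifies cholesterol for storage, was at 63.3, 65.3 and 66.3 CPM in Female and 77.9, 76.3 and 77.3 in Male (log2 fold change 0.25, adjusted p = 2.00e-05). It was at 134, 133 and 132 CPM in WT and 103, 109 and 112 in KD (log2 fold change -0.30, adjusted p = 4.34e-05).

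Npc1 and Npc2 work together to move cholesterol out of late endosomes and lysosomes, after lipoprotein uptake. Npc1 was at 198, 206 and 201 CPM in Female and 122, 120.3 and 121 in Male, so it ran against the synthesis genes (log2 fold change -0.74, SE 0.023, adjusted p = 2.77e-09). In KD it ran with them, at 91.4, 96.1 and 87.7 CPM in WT and 69.1, 71.2 and 72.9 in KD (log2 fold change -0.37, SE 0.038, adjusted p = 3.60e-05). Npc2 was at 186, 186 and 180.1 CPM in Female and 189, 190.4 and 189 in Male, with a log2 fold change of 0.043 (95% interval -0.00038 to 0.086, edgeR adjusted p = 0.138). The groups did not overlap, but the difference was past the threshold only, of the alternatives run, with genes limited to a mean log2 CPM of at least 1 (0.071, adjusted p = 0.016). It went from 188, 189.6 and 189.6 CPM in WT to 166, 167 and 169.8 in KD (log2 fold change -0.17, adjusted p = 0.00010). The log2 ratio of Npc1 to Npc2 was lower by 0.78 in Male than in Female and by 0.20 in KD than in WT, with exact permutation p = 0.1 each and 0.125 adjusted.

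**Figure D3:**
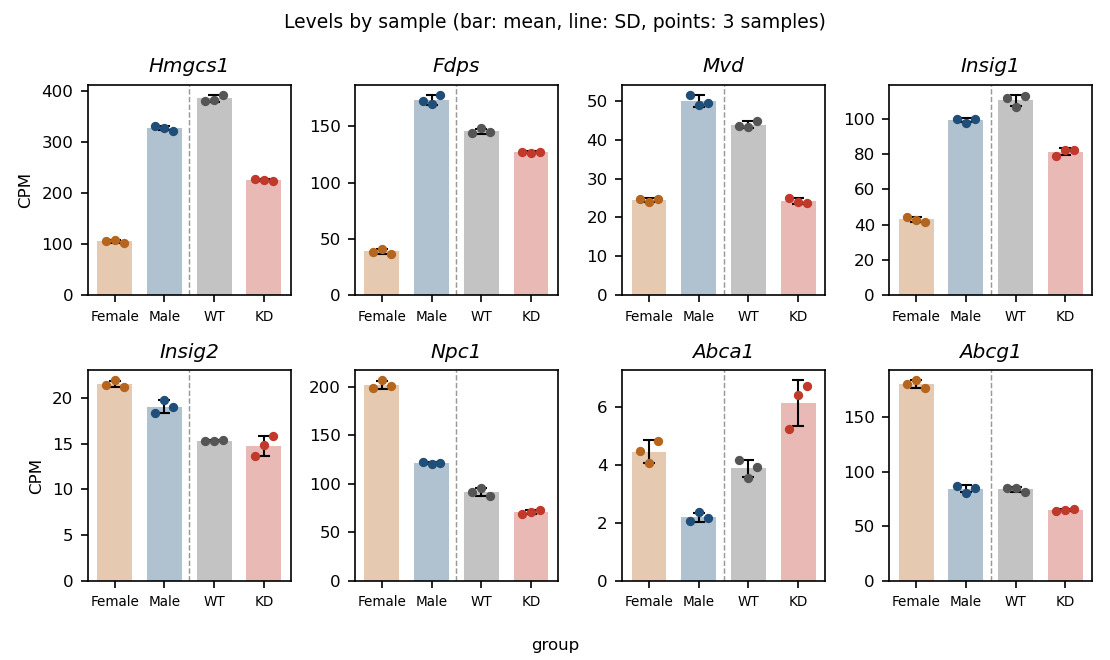
CPM of 8 of the genes by group, with points for the 3 samples, bars for the mean and lines for 1 SD. Fdps shows a wide gap between Female and Male and a narrow one between WT and KD, Npc1 and Abcg1 are highest in Female, and Abca1 is higher in KD than in WT.

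The efflux and LXR genes were lower in Male: 4 of the 5 were called lower, beside 26.3% of all genes tested, and 0 higher, with a median log2 fold change of -1.02. Abcg1 (chromosome 17, 31057675 to 31117988), which passes cholesterol to lipoprotein particles, was at 180.1, 184 and 176 CPM in Female and 87.1, 81.0 and 85.3 in Male, 46.9% of Female (log2 fold change -1.09, SE 0.031, adjusted p = 1.37e-09). Abca1 (chromosome 4, 53030787 to 53159895), which loads lipid-poor apolipoprotein, was at 4.47, 4.06 and 4.84 CPM in Female and 2.07, 2.38 and 2.16 in Male, 49.4% of Female (log2 fold change -1.02, SE 0.13, adjusted p = 6.36e-05). Both transporters were thus lower in each Male sample, by a similar factor, although Abca1 was near the bottom of the range of levels. Mylip, an LXR target that marks lipoprotein receptors for degradation, was at 13.3, 14.2 and 14.3 CPM in Female and 10.6, 11.8 and 10.9 in Male (log2 fold change -0.33, adjusted p = 0.0020).

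Of the receptors, Nr1h2 (LXR beta) was at 51.4, 53.8 and 51.8 CPM in Female and 47.1, 50.2 and 51.7 in Male, where the groups overlapped (log2 fold change -0.076, 95% interval -0.15 to 0.00090, edgeR adjusted p = 0.139). Nr1h3 (LXR alpha) was at 1.03, 1.47 and 1.96 CPM in Female and 0.567, 0.324 and 0.848 in Male, from 87 to 191 and from 30 to 75 counts. It was called lower in Male (log2 fold change -1.36, SE 0.35, adjusted p = 0.0083), with a spread within groups far wider than that of Nr1h2.

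In KD the 5 efflux genes did not move together: 2 were called higher, 2 lower and 1 not called, where 16.8% and 18.4% of all genes tested were called higher and lower. Abca1 was at 4.16, 3.56 and 3.94 CPM in WT and 5.25, 6.43 and 6.74 in KD, 158% of WT (log2 fold change 0.66, SE 0.12, adjusted p = 0.0015). Abcg1 was at 84.9, 85.6 and 81.5 CPM in WT and 63.7, 65.1 and 66.2 in KD, 77.4% of WT (log2 fold change -0.37, SE 0.032, adjusted p = 9.04e-06). The transporters therefore moved in opposite directions, and the log2 ratio of Abca1 to Abcg1 went from -4.43 in WT to -3.41 in KD (exact permutation p = 0.1, adjusted 0.125). Between Male and Female that ratio differed by 0.085 with overlapping groups (exact permutation p = 0.5), and by -0.00062 without Male replicate 2. Nr1h2 was called higher in KD, at 62.1, 62.2 and 59.3 CPM in WT and 67.4, 74.2 and 69.4 in KD (log2 fold change 0.20, adjusted p = 0.0032). Nr1h3 was at 0.686, 0.851 and 0.917 CPM in WT and 0.538, 0.479 and 0.456 in KD, and was called lower (log2 fold change -0.74, SE 0.23, edgeR adjusted p = 0.030). That call was lost without WT replicate 2 (adjusted p = 0.082), WT replicate 3 (0.102), KD replicate 2 (0.068) or KD replicate 3 (0.080), and with DESeq2 (0.057) or 1 fit of all 12 samples (0.093). Mylip had a log2 fold change of -0.17 that was not past the threshold (edgeR adjusted p = 0.097).

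Over all 32 genes, 22 were called higher and 6 lower in Male, beside 23.5% and 26.3% of all genes tested. In KD 3 were called higher and 26 lower, beside 16.8% and 18.4%. Groups did not overlap for 29 of the 32 genes between Male and Female, beside 58.3% of all genes tested, and for 30 of the 32 between KD and WT, beside 46.8%. The comparisons share no samples. Of the 32 genes, 21 (65.6%) were called higher in Male and lower in KD, among them 17 of the 19 synthesis genes with Insig1, Srebf2, Stard4 and Soat1. Over the 19529 genes tested in both comparisons that pattern was found for 1431 (7.33%). Npc1, Abcg1 and Nr1h3 were called lower in both, and Abca1 was called lower in Male and higher in KD. Over the 19529 genes these patterns were found for 1292 and 1331. Of the 32 genes 0 were called higher in both, beside 960 of the 19529. The remaining 7 were each called in a single comparison, Ggps1, Scap, Npc2 and Nr1h2 in KD only and Ebp, Insig2 and Mylip in Male only. Of the 19529 genes, 14515 lacked a call in the sex comparison, the knockdown or both. As the sex comparison and the knockdown come from separate batches, the sizes of their fold changes are set side by side only.

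Across the 32 genes, which are not independent replicates, the fold changes of the comparisons had Pearson's r of -0.44 and Spearman's rho of -0.43, beside -0.19 and -0.082 over the 19529 genes. Across the 19 synthesis genes alone they were -0.24 and -0.12. The knockdown change of Idi1 was 6.97% of its sex difference on the log2 scale, and that of Fdps 9.18%. For Dhcr7, Ebp and Nsdhl it was 17.2%, 21.4% and 22.2%. It was 47.2% for Hmgcs1, 65.3% for Acat2 and 83.8% for Mvd, and for Tm7sf2 the knockdown change was the larger, at 134%.

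**Figure D4:**
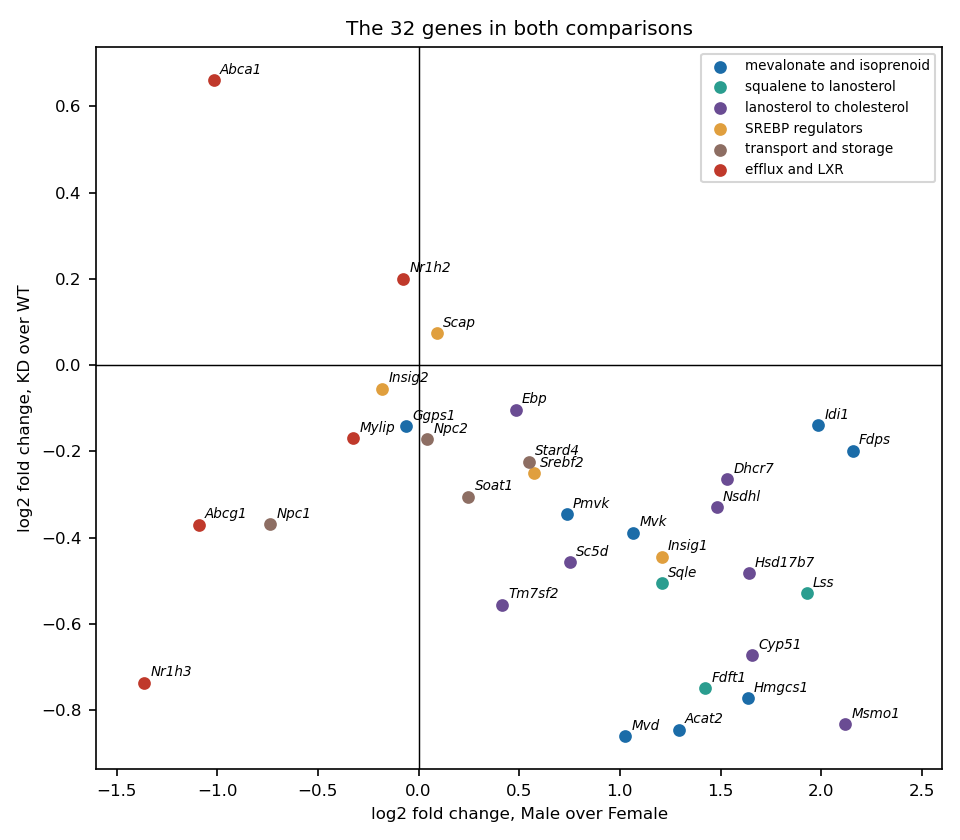
Log2 fold change of each of the 32 genes in Male over Female (horizontal axis) against KD over WT (vertical axis), coloured by role. Most synthesis genes lie at the lower right, with Idi1 and Fdps far right and near the zero line, while Abca1 lies alone at the upper left and Npc1, Abcg1 and Nr1h3 at the lower left.

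Per kilobase of exon, Srebf2 was the most abundant of the 32 genes in Female, at 48.2 ± 0.66 CPM per kilobase (SD, n = 3), followed by Npc2 at 33.8 ± 0.62, Abcg1 at 24.7 ± 0.51, Hmgcs1 at 22.9 ± 0.64 and Cyp51 at 21.7 ± 0.30. In Male 3 synthesis genes followed Srebf2 at the top of the order, with Srebf2 at 71.7 ± 0.75 and Hmgcs1 at 71.3 ± 0.88, a gap smaller than either SD, then Cyp51 at 68.5 ± 0.99 and Fdps at 41.2 ± 1.07. In WT Srebf2 at 85.0 ± 0.25 and Hmgcs1 at 84.0 ± 1.46 again lay within the SD of Hmgcs1, ahead of Cyp51 at 63.9. In KD Srebf2 was at 71.4 ± 2.76, well above Hmgcs1 at 49.2 ± 0.45 and Cyp51 at 40.1 ± 0.22. Abca1 and Nr1h3 were the lowest in each group, between 0.195 and 0.593 CPM per kilobase.

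Genes around the pathway did not all go the same way. Of 13 genes for SREBP maturation, its cofactors and sterol-regulated degradation, 1 was called higher and 10 lower in Male (median log2 fold change -0.16). In KD 3 were called higher and 4 lower (median 0.069). Over all genes tested 23.5% and 26.3% were called higher and lower in Male, and 16.8% and 18.4% in KD. This list was thus mostly lower in Male and mixed in KD. Nfya, a subunit of NF-Y, was called higher in both comparisons, with log2 fold changes of 0.16 (adjusted p = 0.0010) and 0.26 (adjusted p = 2.47e-05). Sp1, a general factor that acts beside SREBP, had log2 fold changes of -0.45 in Male and 0.24 in KD, and Erlin1, which takes part in sterol-regulated degradation, had -0.76 in Male.

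Of 18 further genes for sterol uptake and transport, 6 were called higher and 7 lower in Male (23.5% and 26.3% over all genes tested), and 2 higher and 9 lower in KD (16.8% and 18.4%). Lrp8, a receptor of the lipoprotein receptor family, averaged 32.1 ± 0.79 CPM in the Female samples and 81.3 ± 1.90 in the Male samples (SD, n = 3, log2 fold change 1.34, edgeR adjusted p = 3.71e-10). Tmem97, a sterol-responsive membrane protein that binds NPC1, averaged 25.2 ± 1.45 CPM in the Female samples and 56.7 ± 0.37 in the Male samples (log2 fold change 1.17), and it was called higher in KD as well (0.15, adjusted p = 0.0048), where 0 of the 19 synthesis genes were. Vldlr, another receptor of that family, was at 0.126 ± 0.0076 CPM in WT and 0.847 ± 0.040 in KD, from 12 to 91 counts (log2 fold change 2.74, adjusted p = 2.11e-05), and was lower in Male than in Female by 1.02 on the log2 scale (adjusted p = 0.00020). Among the oxysterol-binding proteins, Osbpl8 and Osbpl9 were called lower in both comparisons.

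Of 13 genes that use isoprenoids, 3 were called higher and 4 lower in Male, and 2 higher and 2 lower in KD, with median log2 fold changes of -0.077 and -0.058. These shares are near those over all genes tested, 23.5% and 26.3% in Male and 16.8% and 18.4% in KD. Pdss1, which builds the ubiquinone tail, had a log2 fold change of 0.76 in Male, and Pggt1b, a subunit of a geranylgeranyl transferase, had -0.47. Of 18 LXR partners, targets and oxysterol enzymes, 13 were tested between Male and Female, with 2 called higher and 6 lower (23.5% and 26.3% over all genes tested). Between KD and WT 14 were tested, with 1 called higher and 8 lower (16.8% and 18.4% over all genes tested). The LXR target Lpcat3, a phospholipid acyltransferase, was higher in Male by 0.75 (edgeR adjusted p = 6.49e-08), against the direction of Abca1 and Abcg1. Pltp, the other gene of this list called higher in Male, had a log2 fold change of 0.90 (adjusted p = 0.00012). Smpdl3a of the same list went with Abca1 and Abcg1, with a log2 fold change of -0.84 in Male (edgeR adjusted p = 4.19e-07). In KD it was not past the threshold (-0.13, edgeR adjusted p = 0.390). In KD Lpcat3 and Pltp were both called lower, with log2 fold changes of -0.23 (adjusted p = 0.00030) and -1.16 (adjusted p = 3.65e-06). Abca7, a lipid transporter, was called lower in both comparisons (-0.79 and -0.37). Sult2b1, which sulphates cholesterol and oxysterols, fell in KD from 28.3 ± 0.54 to 12.5 ± 0.58 CPM (SD, n = 3, log2 fold change -1.17, edgeR adjusted p = 5.18e-08).

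Markers of other cells that express sterol efflux genes summed far below those of CD8 T cells. The macrophage and dendritic cell sums below lay, however, in a range like that of Abca1 (2.07 to 6.74 CPM over all samples). They lay above that of Nr1h3 (0.324 to 1.96 CPM). The 6 macrophage and monocyte markers summed to 2.27 to 3.02 CPM in Female samples and 3.32 to 3.51 in Male samples, mostly from Cd68. The sums were 6.20 to 7.23 CPM in WT samples and 4.42 to 5.38 in KD samples. Adgre1 was at 0 in each Female, WT and KD sample, Cd14 in each Female and Male sample, and Lyz2 and Itgam in each Male sample. Like the synthesis genes, this sum was higher in Male than in Female and lower in KD than in WT. The 4 dendritic cell markers, like most of the efflux genes, summed lower in Male samples (2.74 to 3.45 CPM) than in Female samples (3.61 to 4.56). They also summed lower in KD samples (4.08 to 5.40) than in WT samples (6.28 to 7.80), where the efflux genes were mixed. Each lower sum came mainly from a different marker. By sex, Zbtb46 averaged 2.68 CPM in Male and 3.76 in Female, while Itgax averaged 0.460 and 0.418. In the knockdown, Itgax averaged 1.19 CPM in KD and 3.57 in WT, while Zbtb46 averaged 3.47 and 3.46. Of the 3 erythroid and platelet markers, Hba-a1 and Hbb-bs were at 0, and Pf4 brought the sum to 0.802 to 1.19 CPM in Female samples and to at most 0.038 in any other sample. The sums of the 4 B cell, 3 CD4 T cell, 2 NK cell and 3 neutrophil markers were also lower in KD than in WT without overlap, and reached at most 6.49, 6.31, 1.60 and 0.430 CPM in any of the 12 samples. Ms4a1 and Siglech were at 0 in all 12 samples, as were S100a8 and S100a9. The 3 stroma markers summed to 43.3 to 45.3 CPM in Female, 38.6 to 40.1 in Male, 35.4 to 37.4 in WT and 29.0 to 31.7 in KD, mostly from Pecam1. The part of these cells in the changes of the sterol genes was not tested.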

How the data were processed

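Expression was measured by RNA sequencing of total RNA, with stranded libraries made after ribosomal RNA depletion, per the labels' protocols. The authors deposited raw counts per gene in 2 tables, the first with the Female and Male samples and the other with the WT and KD samples. The submitters' processing notes name bcl2fastq 2.20.0, HISAT2, StringTie, DESeq2 and mm10, and which tool made the counts, with which settings and annotation and whether by strand, is not given in the sources used here. Counts derived from assembled coverage need not be independent fragments, so counts divided by 4 were tried as an alternative.

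The 6 samples of each table were fitted by themselves (edgeR 4.0.16, R 4.3.3, with TMM, filterByExpr and the quasi-likelihood test). P-values were adjusted by Benjamini-Hochberg over all genes tested, and genes were called at an adjusted p under 0.05. Standard errors are the absolute log2 fold change over the square root of F, and 95% intervals are normal approximations from them, not adjusted for the number of genes. Symbols, positions and exon lengths came from GENCODE M21 (GRCm38), which matched 55227 of 55487 identifiers, and promoter windows from RefSeq. No per-sample column was left unmapped. The scripts were tested on simulated counts with 200 genes changed by 1 log2 unit. In the sex and knockdown settings edgeR recovered 69% and 67% of them, and 7.38% and 5.63% of its calls were false. For DESeq2 14.2% and 19.0% of calls were false, and for limma-voom 4.83% and 1.47%. The simulated noise followed edgeR's own estimates, and far fewer genes were changed than edgeR called in these data (10067 by sex and 7171 after the knockdown). These shares therefore need not hold for the real calls, and calls made with DESeq2 but not with edgeR remain uncertain.

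Named genes were all 32 listed genes, up to 3 called genes in each direction with the smallest p from each related list and comparison, and Kdm5d. Not each gene taken from the related lists is named. The genes and lists were chosen with earlier results of these data known. Ratios of 5 gene pairs were compared with an exact two-sided permutation test. Alternatives covered the test (DESeq2 1.42.0, or limma-voom from limma 3.58.1), normalization, low-count filters, thresholds, the prior count, all 12 samples in 1 fit, leaving out each replicate, and the replicate number as a block.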

Additional observations from a re-analysis of the deposited data

How the results depend on the processing

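Requiring an absolute log2 fold change of at least 1 left 1471 genes called by sex and 808 after the knockdown, 15 of the 32 genes higher and 3 lower in Male, and 0 higher and 0 lower in KD. Without that requirement edgeR called 29 of the 32 in KD against WT, 31 were at an unadjusted p under 0.05, and their largest absolute log2 fold change was 0.86. DESeq2 and limma-voom also gave 0 past 1. Over the other settings 22 to 24 genes were called higher and 5 to 7 lower in Male, with 7 lower without Male replicate 1, and 24 and 5 of 31 tested at a mean log2 CPM of at least 1. The median of the synthesis genes in Male against Female was 1.42 to 1.43 over settings and 1.35 to 1.46 without one replicate, the lowest without Female replicate 1, and in KD against WT -0.48 to -0.45 and -0.50 to -0.47. The difference in the ratio of Abca1 to Abcg1 between Male and Female was -0.00062 to 0.16 without one replicate, and the reverse direction arose without Male replicate 2; the cause was not tested. Kdm5d stayed between -1.25 and -1.18. Of 1022 values of single genes under alternatives, 997 kept their side of the threshold, 10 came past it, 15 fell short of it and 0 reversed. Samples with the same replicate number did not deviate together (correlations of -0.0011 to 0.018 by sex and -0.040 to 0.021 in the knockdown), and 1 of 3 samples on each side correlated best with its own number. With the replicate number as a block, 9740 and 6688 genes were called, 23 of the 32 were higher and 6 lower in Male, and 2 were higher and 26 lower in KD. The block moved Scap past the threshold by sex (edgeR adjusted p = 0.013) and Ebp in KD (0.049), and left Scap (0.051) and Nr1h3 (0.063) in KD short of it. Few counts limit the precision of Nr1h3 and Vldlr, with as few as 30 and 12 in a sample.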
